A study of Drosophila melanogaster with 18 samples.

Results

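This account compares the nuclear RNA of fly photoreceptors after 8 h of blue light with that after 3 h. The members were chosen by their labels: the 3 samples of day 5 flies exposed for 8 h and the 3 exposed for 3 h, 6 of the 18 samples in the series, described across the 9427 of 17811 counted features that passed a minimum of more than 10 counts in every one of the 18 samples. All 6 came from male, white-eyed Drosophila carrying the w1118 allele with cn and bw and a transgene, Rh1-GFP-Msp300KASH, in which the regulatory region of ninaE, the Rh1 rhodopsin gene, drives a green fluorescent protein anchored in the outer nuclear membrane. Nuclei of the outer photoreceptors R1 to R6 were pulled down by that tag from pooled flies, so each sample is a pool. The insertion lies beside Cat, the catalase gene, and raises its expression in photoreceptors, which all groups share. Flies were frozen directly after exposure. The start of the exposure in the light cycle is not given in the sources used here, so length of exposure and clock time at freezing cannot be told apart. Day 5 flies without blue light and day 5 flies after 5 h appear below as levels only.

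Fly photoreceptors turn light into an electrical signal through rhodopsin, a Gq protein, phospholipase C and the TRP and TRPL channels, and arrestins and calmodulin shut the response down. Strong blue light converts Rh1 to its active form, holds the cascade on and loads the cell with calcium, and prolonged exposure damages the light-sensing rhabdomeres of white-eyed flies. Light also resets the circadian clock, in which Clk and cyc activate per, tim, vri, Pdp1 and cwo, whose products act back on transcription. RNA taken from nuclei is rich in unfinished transcripts and follows ongoing transcription more closely than RNA of whole cells does.

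Depth was 11906754 to 20471486 counted read pairs in the 3 h samples and 18058148 to 19855893 in the 8 h samples. The groups differed in read quality: 14.5% to 17.8% of pairs were not aligned at 3 h and 11.99% to 12.7% at 8 h, and 37.1% to 40.5% against 42.7% to 44.3% were counted to a gene. The part of these shares in the results was not tested. Levels are given as cpm, counts scaled by TMM to libraries of equal size. The summed level of 11 markers of R1 to R6 cells ranged from 54007 to 69192 cpm at 3 h and from 63892 to 68280.3 cpm at 8 h. ninaE stood at 6276, 7358 and 7600.3 cpm in the 3 h samples and 6157, 4777 and 5584 cpm in the 8 h samples and did not pass the test (log2 fold change -0.57 ± 0.21 SE, adjusted p = 0.0742), though every 8 h sample was below every 3 h sample. GFP, read from the transgene, stood at 98.5, 139 and 139 cpm in the 3 h samples and 96.5, 83.9 and 52.7 cpm in the 8 h samples, also lower in every 8 h sample, although the fitted log2 fold change was 0.09 with 2 factors (adjusted p = 0.911) and -0.69 with 0 factors, adjusted p = 0.336.

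Between 3 h and 8 h of blue light a set of genes with high counts at 3 h, among them CG17005, CG13992 and the wing gene vg, fell to a few cpm. Mp, a collagen gene, Akap200, a kinase anchor gene, and 13 of 31 proteasome subunit genes rose. Of the 9427 genes tested, 603 were higher and 856 lower at 8 h than at 3 h, 15.5% of all (6.4% higher and 9.08% lower), at an adjusted p under 0.05 (edgeR's quasi-likelihood test, Benjamini-Hochberg adjustment, with 2 factors of unwanted variation estimated from the replicates of all 18 samples). The 2 factors matter for every value here. Factor 1 was 0.41 to 0.57 in the 3 h samples and -0.25 to -0.14 in the 8 h samples, and factor 2 was -0.54 to 0.10 and 0.26 to 0.61, so each factor alone separated the groups, and part of the difference between them is taken up by the factors. With 0 factors 1589 genes were higher and 1868 lower (16.9% and 19.8%, together 36.7% of those tested). Both fits called 1017 genes, all in the same direction, of which 372 were higher (3.95% of those tested) and 645 lower (6.84%). The other 442 calls were made only with factors. The log2 fold change had a median of -0.01 over all tested genes with 2 factors and -0.03 with 0. In 56.5% of tested genes the 3 samples of one group lay all above those of the other, 27.2% higher and 29.2% lower at 8 h, so a gene whose groups do not overlap is common here. Under upper-quartile scaling 54.5% of calls were higher, against 41.3% with TMM scaling. Leaving out 8 h replicate 1 left 808 calls, leaving out 8 h replicate 2 left 916 and leaving out 3 h replicate 3 left 867.

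**Figure D1:**
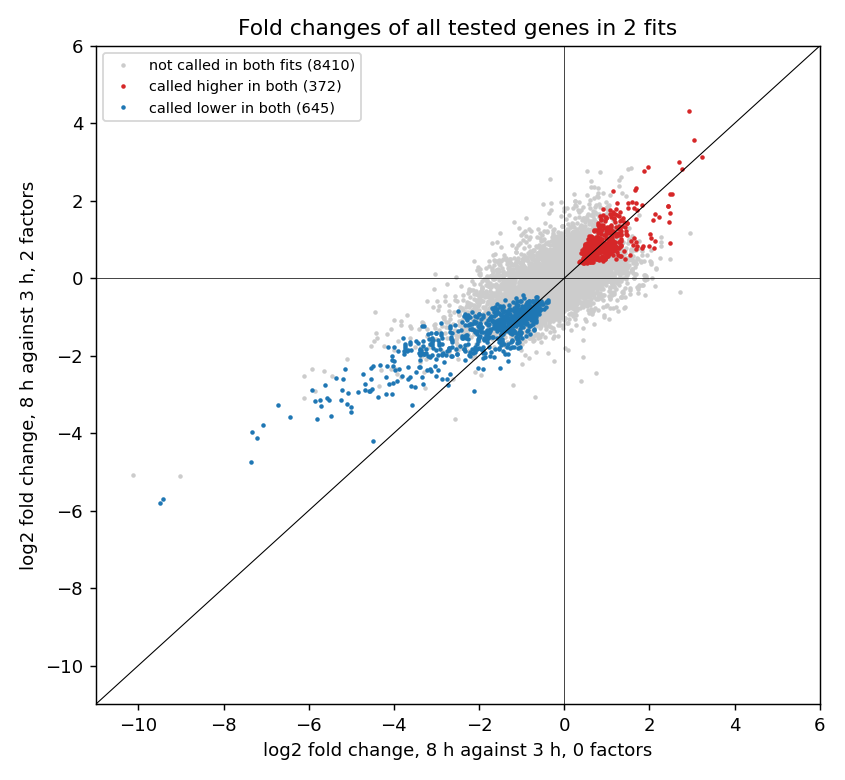
Log2 fold change of 8 h against 3 h for each tested gene (1 point each) with 0 factors (x axis) and with 2 factors (y axis). The 645 genes called lower in both fits reach further from 0 on the x axis than on the y axis, and the 1017 genes called in both fits keep their direction.

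**Figure D2:**
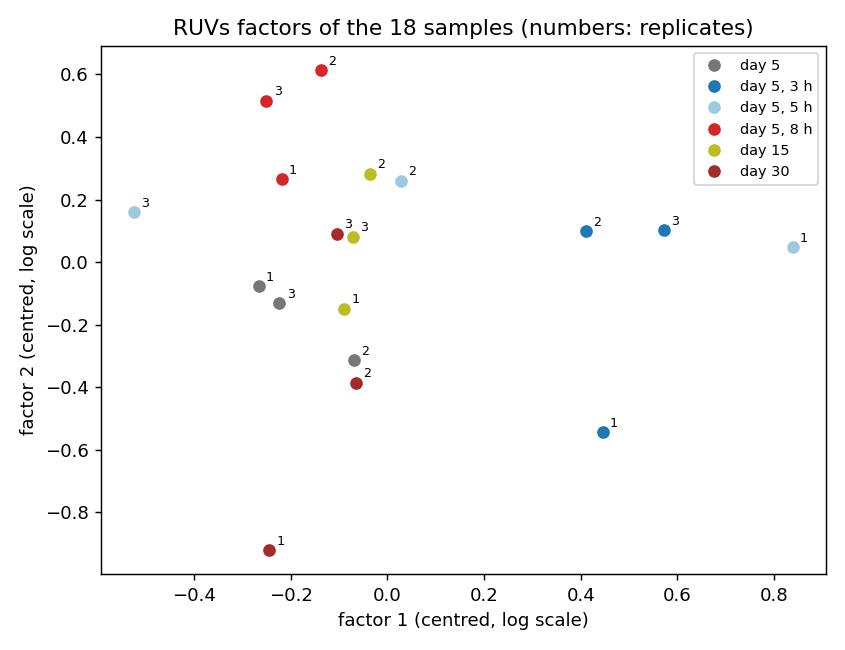
Values of factor 1 (x axis) and factor 2 (y axis), centred and on a log scale, for the 18 samples, with replicate numbers beside the points. The 3 h and 8 h samples do not overlap on factor 1, where the 5 h samples spread from -0.52 to 0.84.

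The largest decreases were of genes with high counts after 3 h that were nearly silent after 8 h. CG17005, a protein-coding gene named only by its number, stood at 3957, 3231 and 5447 cpm in the 3 h samples and 4.95, 6.46 and 5.99 cpm in the 8 h samples (log2 fold change -5.81 ± 1.08 SE, adjusted p = 0.00338). It lies at chr2L:9327744-9330332 (dm6), next to lncRNA:CR45457 (chr2L:9327039-9327553) and lncRNA:CR45456 (chr2L:9325845-9326721). lncRNA:CR45456, a long noncoding RNA, was at 2306, 1928 and 3028 cpm in the 3 h samples and 3.77, 3.31 and 3.54 cpm in the 8 h samples (log2 fold change -5.69 ± 1.01 SE, adjusted p = 0.00249). lncRNA:CR45457 was at 632, 506 and 713 cpm in the 3 h samples and 0.646, 5.73 and 5.99 cpm in the 8 h samples (log2 fold change -4.12 ± 0.98 SE, adjusted p = 0.0128). The groups did not overlap for any of the 3 genes. Eaat1, a glutamate transporter gene singled out after its values were seen, which follows on the same strand at chr2L:9333567-9341925, was at 1262, 1115 and 1841 cpm in the 3 h samples and 61.7, 51.5 and 52.2 cpm in the 8 h samples (log2 fold change -2.89 ± 0.32 SE, adjusted p = 2.18e-04).

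vg, vestigial, the wing selector gene, was at 256, 203 and 206 cpm in the 3 h samples and 1.45, 2.81 and 3.33 cpm in the 8 h samples (log2 fold change -3.58 ± 0.64 SE, adjusted p = 0.00262). CG33003 was at 434, 444 and 472 cpm in the 3 h samples and 4.899, 18.5 and 7.13 cpm in the 8 h samples (log2 fold change -3.57 ± 0.77 SE, adjusted p = 0.00804), and leaving out 3 h replicate 1 ended its call (adjusted p = 0.0704). CG13992 (chr2L:5965391-5967752) was at 145, 265 and 170.3 cpm in the 3 h samples and 0.807, 1.52 and 1.198 cpm in the 8 h samples (log2 fold change -4.74 ± 0.93 SE, adjusted p = 0.00461). Its neighbour asRNA:CR43465 (chr2L:5969859-5971025), which lies within Ucp4B, was at 84.1, 139 and 84.4 cpm in the 3 h samples and 1.51, 5.39 and 2.71 cpm in the 8 h samples (log2 fold change -3.32 ± 0.91 SE, adjusted p = 0.0253). All 4 genes were low in every 8 h sample and high in every 3 h sample.

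CG5071 (chr3R:25618414-25621838) and CG5079 (chr3R:25613666-25614451), which both overlap Npl4, made a further neighbouring pair. CG5071 was at 907, 1182 and 1185 cpm in the 3 h samples and 5.49, 6.85 and 7.81 cpm in the 8 h samples (log2 fold change -3.97 ± 1.19 SE, adjusted p = 0.0359), and CG5079 at 304, 367 and 389 cpm in the 3 h samples and 3.61, 10.2 and 5.104 cpm in the 8 h samples (log2 fold change -3.64 ± 0.91 SE, adjusted p = 0.0157). The last members of the 12 largest decreases were CG2961 (log2 fold change -4.195 ± 1.19 SE, adjusted p = 0.0288), CG34221 (log2 fold change -3.46 ± 0.71 SE, adjusted p = 0.00594) and FBgn0029707, which the tables used here do not name (log2 fold change -3.79 ± 1.01 SE, adjusted p = 0.02195). None of the 12 overlapped between groups, which the naming rule required. 6 of these 12 calls ended without at least 1 sample: 8 h replicate 1 or 3 h replicate 2 for CG2961, CG5071, CG5079, asRNA:CR43465 and FBgn0029707, 8 h replicate 2 for CG5071 and FBgn0029707, 8 h replicate 3 for CG2961, CG5071 and asRNA:CR43465, 3 h replicate 3 for CG2961 and CG5071, and 3 h replicate 1 for CG33003 (highest adjusted p over the samples left out in turn 0.137, asRNA:CR43465).

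Across the 12 largest decreases the median level was 280.0, 316 and 298 cpm in the 3 h samples and 1.64, 5.56 and 3.44 cpm in the 8 h samples. In flies without blue light the median was 2.88, 29.5 and 9.997 cpm. The 5 h samples spread between the 2 exposures, at 116, 37.2 and 4.33 cpm, so that replicate 1 lay towards the 3 h samples and replicate 3 among the 8 h samples. CG33003 showed the same order at 321, 101 and 5.398 cpm in the 5 h samples, with 1.42, 2.73 and 2.31 cpm without blue light. CG17005 differed from most of them in that flies without blue light already had 277, 1043 and 688 cpm.

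Neighbouring genes were often called together. Of the 640 genes lower in both fits that have a position in the annotation, 282 (44.1%) had another such gene within 10000 bases, while 21.5% of all tested genes with a position lay that close to one. For the 368 genes higher in both fits the shares were 30.7% and 16.2%. Among the 21 positioned genes that fell by more than 8-fold, 9 (42.9%) had another within that distance, beside 0.651% of all tested genes with a position. They included HP1b and CG32708 on the X chromosome. HP1b, a heterochromatin protein gene, was at 285, 261 and 381 cpm in the 3 h samples and 8.24, 9.49 and 9.32 cpm in the 8 h samples (log2 fold change -3.24 ± 0.22 SE, adjusted p = 3.04e-06), and was singled out after its values were seen. Many of these genes overlap others, and the strand setting of the counting is not given in the sources used here, so reads of overlapping genes cannot be told apart. Some lie after highly counted genes on the same strand that were also lower. CG42700 (chr2R:12279771-12300795) follows Cam (chr2R:12259398-12278809), and lncRNA:CR45456 lies beyond Ggamma30A (chr2L:9256563-9302494). Whether such neighbours changed separately was not tested.

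**Figure D3:**
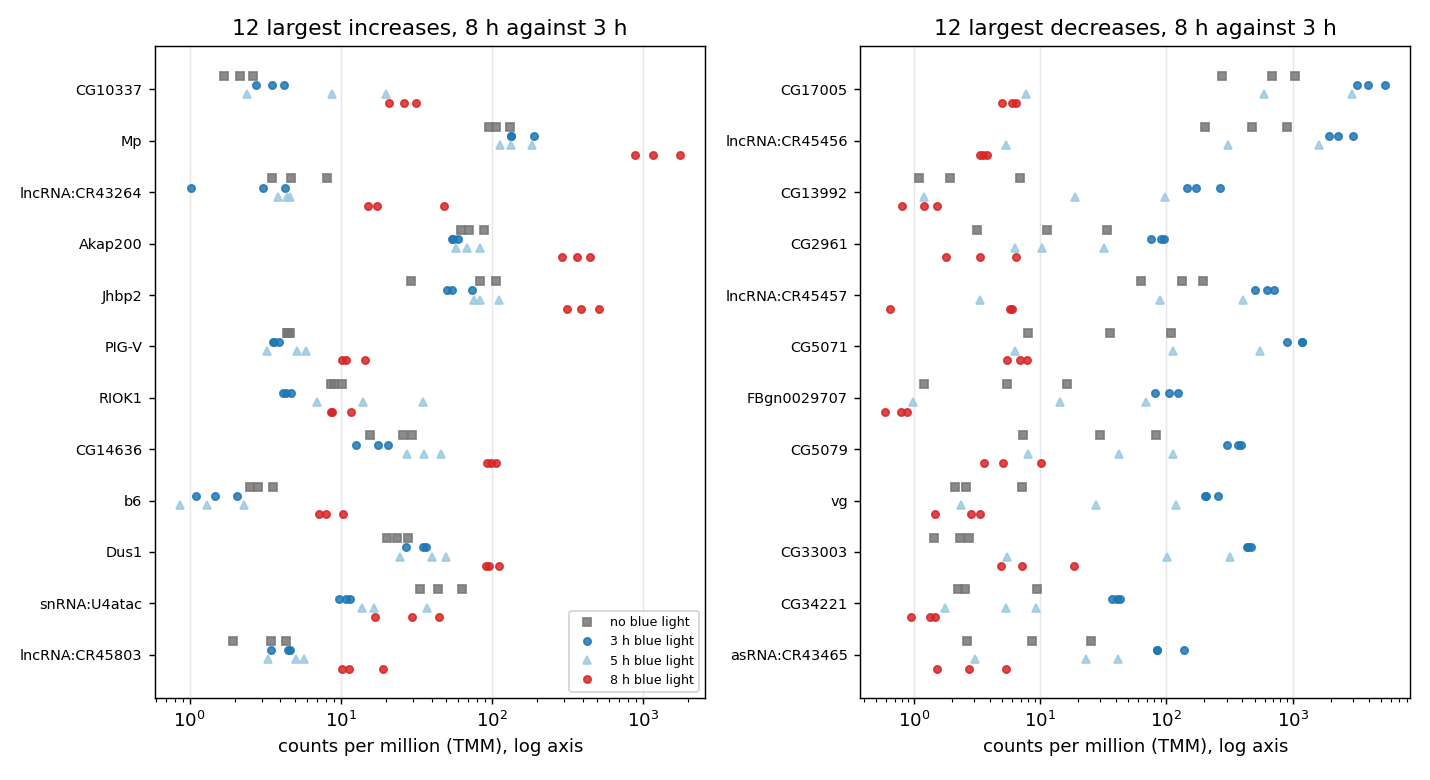
Level in cpm on a log axis in each sample (1 point each) for the 12 genes with the largest increase (left) and the largest decrease (right), with groups by colour and shape. For the decreases the 3 h samples lie far right of the 8 h samples and the 5 h samples spread between them, while for Mp, Akap200 and Jhbp2 the 8 h samples lie right of all others.

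The largest increases were mostly of genes with few counts. Mp, multiplexin, a collagen of the type XV and XVIII class, was at 191, 135 and 134 cpm in the 3 h samples and 1771, 1169 and 887 cpm in the 8 h samples (log2 fold change 3.56 ± 0.32 SE, adjusted p = 4.50e-05). Without blue light it was at 95.5, 133 and 108 cpm and after 5 h at 184, 135 and 114 cpm, so among the day 5 samples only those of 8 h were high. Akap200, an anchoring protein for protein kinase A, was at 59.9, 55.5 and 54.6 cpm in the 3 h samples and 447, 366 and 292 cpm in the 8 h samples (log2 fold change 2.99 ± 0.24 SE, adjusted p = 1.75e-05). Its 5 h samples, at 84.2, 58.4 and 68.7 cpm, were also near those without blue light, at 62.8, 71.3 and 89.03 cpm.

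Jhbp2, named for juvenile hormone binding, was at 50.6, 73.6 and 54.3 cpm in the 3 h samples and 512, 389 and 318 cpm in the 8 h samples (log2 fold change 2.81 ± 0.51 SE, adjusted p = 0.00319). CG14636 was at 12.7, 20.5 and 17.8 cpm in the 3 h samples and 106, 98.3 and 92.96 cpm in the 8 h samples (log2 fold change 2.18 ± 0.34 SE, adjusted p = 0.001201). Dus1, a tRNA dihydrouridine synthase, was at 27.2, 34.9 and 36.6 cpm in the 3 h samples and 112, 95.7 and 91.9 cpm in the 8 h samples (log2 fold change 1.98 ± 0.22 SE, adjusted p = 2.18e-04). In all 3 genes every 8 h sample was above every 3 h sample. CG10337, which overlaps ref(2)P, the fly p62 gene, had the largest fitted increase, from 4.203, 3.52 and 2.76 cpm to 31.7, 20.9 and 26.5 cpm (log2 fold change 4.31 ± 0.43 SE, adjusted p = 1.04e-04).

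The remaining increases were of low-count genes: lncRNA:CR43264 (log2 fold change 3.12 ± 0.70 SE, adjusted p = 0.00922), PIG-V, which adds a mannose to the GPI anchor (log2 fold change 2.27 ± 0.28 SE, adjusted p = 3.47e-04), RIOK1, a kinase of small ribosomal subunit maturation (log2 fold change 2.27 ± 0.31 SE, adjusted p = 6.22e-04), b6 (log2 fold change 2.18 ± 0.42 SE, adjusted p = 0.00406), the minor spliceosome RNA snRNA:U4atac (log2 fold change 1.94 ± 0.54 SE, adjusted p = 0.0261) and lncRNA:CR45803 (log2 fold change 1.94 ± 0.61 SE, adjusted p = 0.0432). RIOK1 was at 10.1, 8.59 and 9.01 cpm without blue light, in the range of the 8.83, 8.700 and 11.7 cpm at 8 h, so its 3 h samples, at 4.72, 4.13 and 4.34 cpm, were the low ones. The 3 h samples of snRNA:U4atac, at 10.8, 11.6 and 9.74 cpm, were the low ones too. It was at 44.9, 29.6 and 17.0 cpm at 8 h and 43.9, 33.7 and 63.7 cpm without blue light. The calls of snRNA:U4atac and lncRNA:CR45803 each ended without 8 h replicate 1, 8 h replicate 2, 3 h replicate 2 or 3 h replicate 3, and that of snRNA:U4atac also without 3 h replicate 1 (highest adjusted p 0.138 and 0.151).

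Flies without blue light place these changes. Among the 645 genes lower in both fits, the mean without blue light lay on the 8 h side of the midpoint (on the log2 scale) in 379 genes and on the 3 h side in 266. For the 372 higher genes it lay on the 8 h side in 131 and on the 3 h side in 241. On a scale from 0 at 3 h to 1 at 8 h, the lower genes had a median position of 0.328, 0.5596 and 0.792 in the 3 samples of 5 h, and the higher genes 0.476, 0.435 and 0.453. In these medians the 5 h replicates stood apart among the lower genes and close together among the higher ones. Medians over many genes do not show that replicates matched gene by gene. Across the 12 largest increases the median level was 7.76, 8.05 and 7.04 cpm in the 3 h samples and 46.5, 25.2 and 22.0 cpm in the 8 h samples. It was 31.4, 14.0 and 11.8 cpm in the 5 h samples. Without blue light it was 12.9, 18.4 and 16.3 cpm, above every 3 h sample.

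The proteasome, the protease that degrades ubiquitin-tagged proteins, was higher at 8 h in both fits. Of 31 subunit genes tested, 13 were higher and 0 lower (background 6.4% and 9.08%), with a median log2 fold change of 0.61 beside -0.01 over all genes tested. The same background applies to each list of genes or markers below. With 0 factors 23 were higher and 0 lower (median 0.68). The count was 5 to 12 when each sample was left out in turn, 2 with a replicate block and 6 without 5 h replicate 1. The calls took in 4 of 13 core subunits and 9 of 18 subunits of the regulatory particle. Prosalpha7, a core subunit, was at 13.6, 14.1 and 13.5 cpm in the 3 h samples and 26.5, 30.6 and 32.7 cpm in the 8 h samples (log2 fold change 0.898 ± 0.26 SE, adjusted p = 0.0331). Rpn11, the deubiquitinating subunit, was at 6.35, 8.701 and 6.57 cpm in the 3 h samples and 14.3, 12.7 and 15.4 cpm in the 8 h samples (log2 fold change 1.22 ± 0.28 SE, adjusted p = 0.0115), and Prosbeta4, another core subunit, at 4.803, 5.06 and 4.58 cpm in the 3 h samples and 9.04, 8.195 and 8.85 cpm in the 8 h samples (log2 fold change 1.24 ± 0.28 SE, adjusted p = 0.0102). Rpn2, a scaffold of the regulatory particle, was at 58.7, 66.2 and 72.9 cpm in the 3 h samples and 88.5, 95.5 and 94.4 cpm in the 8 h samples (log2 fold change 0.87 ± 0.16 SE, adjusted p = 0.00371). The 8 h samples were above the 3 h samples in all 4 genes. The call of Prosalpha7 ended without any 1 of the 6 samples and that of Rpn11 without 3 h replicate 1 (highest adjusted p 0.0810 and 0.0813).

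Phototransduction genes were split. Of 36 tested, 6 were lower and 0 higher with 2 factors (median -0.09), while with 0 factors 13 were higher and 6 lower (median 0.25). Both fits called 5 genes lower. Ggamma30A, the gamma subunit of the visual G protein, was at 24253, 22960.3 and 29936 cpm in the 3 h samples and 5108, 7221 and 7534 cpm in the 8 h samples (log2 fold change -1.82 ± 0.29 SE, adjusted p = 0.00137). Cam, calmodulin, was at 4735, 4645 and 4790.1 cpm in the 3 h samples and 1057, 1386 and 1237 cpm in the 8 h samples (log2 fold change -1.38 ± 0.32 SE, adjusted p = 0.01102), and lost its call without 8 h replicate 1 (adjusted p = 0.0810). Arr2, the major arrestin, named outside the rule after its values were seen, was at 6876, 8832 and 8304 cpm in the 3 h samples and 3447, 2982 and 3559 cpm in the 8 h samples (log2 fold change -1.22 ± 0.19 SE, adjusted p = 0.00133). ninaB, which cleaves carotenoid to make the chromophore, was at 313, 362 and 627 cpm in the 3 h samples and 133, 172 and 185 cpm in the 8 h samples (log2 fold change -1.29 ± 0.34 SE, adjusted p = 0.0204), and lost its call without 3 h replicate 3 (adjusted p = 0.0903). The groups did not overlap in these 4 genes. inaD, the scaffold of the signalling complex, which the naming rule did not pick, was at 269, 510.4 and 266 cpm in the 3 h samples and 1556, 1734 and 1716 cpm in the 8 h samples, with no overlap, and its log2 fold change was 0.51 (adjusted p = 0.314) with 2 factors but 2.26 with 0 factors, adjusted p = 0.00196. rdgA, among the R1 to R6 markers, was called lower with 2 factors (log2 fold change -0.87 ± 0.27 SE, adjusted p = 0.0402). With 0 factors its log2 fold change was 0.25 (adjusted p = 0.569). Its groups overlapped, at 7199, 8195 and 8851 cpm in the 3 h samples and 8836, 9787 and 10193 cpm in the 8 h samples.

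All 16 clock genes on the list were tested, and 1 was lower and 0 higher with 2 factors (median -0.16). The lower share was 6.25%, beside 9.08% of all tested genes. That gene was qsm, quasimodo, which takes part in the light response of the clock, at 30.02, 26.8 and 26.9 cpm in the 3 h samples and 22.5, 19.7 and 20.1 cpm in the 8 h samples (log2 fold change -0.62 ± 0.15 SE, adjusted p = 0.0132). Its call ended with a replicate block, without 5 h replicate 1 and without all 5 h samples (highest adjusted p 0.132). With 0 factors 2 were higher and 3 lower. Clk, the activator, was at 204, 249 and 163 cpm in the 3 h samples and 499, 509 and 569 cpm in the 8 h samples, so every 8 h sample was above every 3 h sample, and its log2 fold change was 0.47 with 2 factors (adjusted p = 0.599) and 1.35 with 0 factors, adjusted p = 0.0243.

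Of the 5 genes that Clk activates, 3 had a lower level in every 8 h sample than in every 3 h sample. Over the 16 clock genes, 6 lay wholly above at 8 h and 4 wholly below. The shares of all tested genes were 27.2% and 29.2%. vri, a repressor of Clk, was at 473, 479 and 878 cpm in the 3 h samples and 68.3, 316 and 202 cpm in the 8 h samples (log2 fold change -1.78 ± 0.78 SE, adjusted p = 0.132; -1.64 with 0 factors, adjusted p = 0.0344). cwo, a repressor of the same targets, was at 253, 184 and 539 cpm in the 3 h samples and 49.04, 70.1 and 56.4 cpm in the 8 h samples (log2 fold change -1.502 ± 0.92 SE, adjusted p = 0.281; -2.48 with 0 factors, adjusted p = 0.0231). per was at 1022, 909 and 1621 cpm in the 3 h samples and 239.6, 677 and 481 cpm in the 8 h samples (log2 fold change -0.47 ± 0.66 SE, adjusted p = 0.669). None of these 3 genes passed the test with 2 factors. tim (882, 1150.0 and 3827 cpm against 404, 1800.2 and 1304 cpm) and Pdp1 (654, 973 and 1936 cpm against 627, 1158 and 1071 cpm) overlapped. per, tim and cwo also varied widely in flies without blue light, at 654, 171 and 414, 5708, 174 and 3334 and 539, 55.8 and 218 cpm.

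The other 9 clock genes had log2 fold changes from -0.39 to 0.28 with 2 factors and did not pass the test. They were the partner of Clk, cyc (28.8 ± 4.66 cpm at 3 h and 40.7 ± 2.19 cpm at 8 h (SD, n = 3)), the blue light receptor cry (33.3 ± 7.57 cpm at 3 h and 45.3 ± 3.76 cpm at 8 h (SD, n = 3)), the kinase genes dco (226 ± 30.7 cpm at 3 h and 224 ± 13.4 cpm at 8 h (SD, n = 3)), sgg (2204 ± 301 cpm at 3 h and 1916 ± 199 cpm at 8 h (SD, n = 3)), CkIIalpha (20.5 ± 5.47 cpm at 3 h and 27.2 ± 6.09 cpm at 8 h (SD, n = 3)) and CkIIbeta (79.9 ± 17.1 cpm at 3 h and 121 ± 3.597 cpm at 8 h (SD, n = 3)), the ubiquitin ligase genes jet (11.2 ± 2.49 cpm at 3 h and 11.8 ± 2.79 cpm at 8 h (SD, n = 3)) and slmb (82.4 ± 4.83 cpm at 3 h and 96.1 ± 4.49 cpm at 8 h (SD, n = 3)), and the output gene to, takeout (7.700 ± 1.304 cpm at 3 h and 11.98 ± 0.02401 cpm at 8 h (SD, n = 3)). CkIIbeta passed with 0 factors (0.59 with 0 factors, adjusted p = 0.00726).

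**Figure D4:**
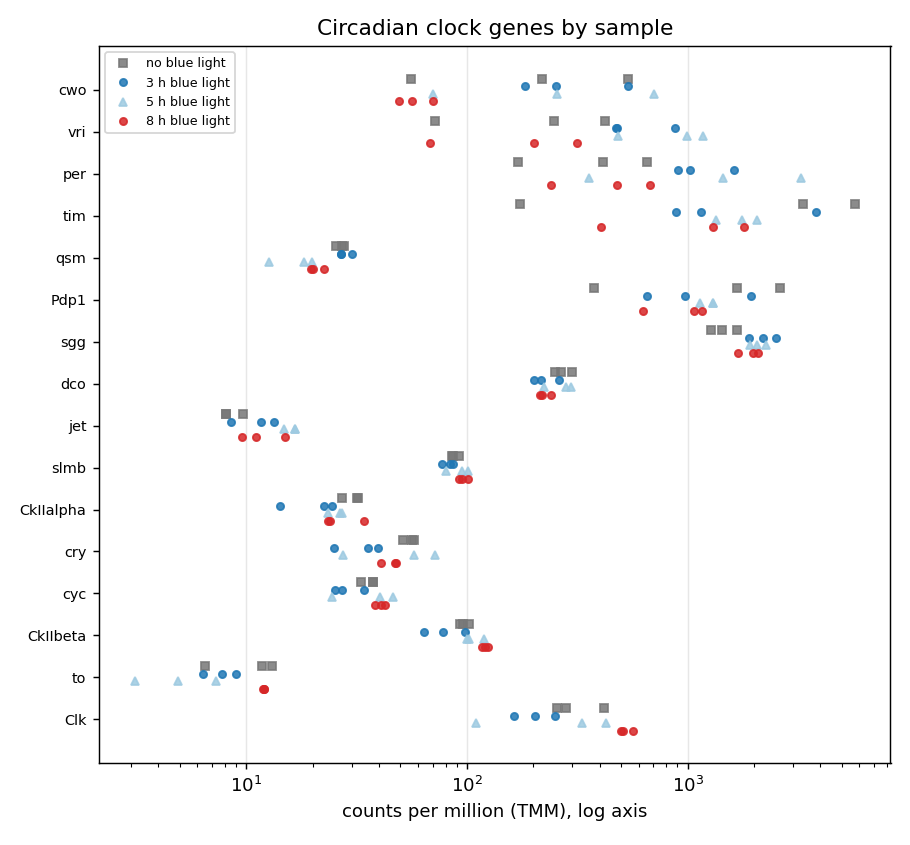
Level in cpm on a log axis in each sample (1 point each) for the 16 clock genes, with groups by colour and shape, ordered by fold change with 0 factors. cwo, vri and per lie higher in the 3 h samples and Clk in the 8 h samples, while tim, Pdp1 and cwo spread widely without blue light.

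Genes that respond to neuronal activity are known for fast, short-lived transcription. sr, stripe, the fly relative of Egr1, was at 76.4, 71.4 and 92.9 cpm in the 3 h samples and 18.6, 16.4 and 15.8 cpm in the 8 h samples (log2 fold change -1.001 ± 0.23 SE, adjusted p = 0.0103) and was the 1 called of 8 (0 higher). With 0 factors 5 were lower and 1 higher. Hr38, the fly relative of the NR4A receptors, named outside the rule after its values were seen, was at 525, 421 and 696 cpm in the 3 h samples and 19.9, 38.8 and 28.3 cpm in the 8 h samples, with adjusted p = 0.07403 for 2 factors and 0.00173 for 0. kay, the fly Fos gene, was at 1609.7, 1356 and 2069 cpm in the 3 h samples and 394, 508 and 439.5 cpm in the 8 h samples (log2 fold change -0.74 ± 0.31 SE, adjusted p = 0.114; -1.91 with 0 factors, adjusted p = 0.00205). In all 3 genes every 3 h sample was above every 8 h sample. sr was at 91.5, 104 and 78.9 cpm without blue light, level with 3 h, whereas kay was at 364, 755 and 527 cpm, level with 8 h.

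DNA repair genes included 17 higher and 2 lower of 48 tested (background 6.4% and 9.08%), with a median of 0.67. The higher count was 12 to 15 with samples left out in turn and 9 with a replicate block. Without 5 h replicate 1 it was 11, with 5 lower. Without all 5 h samples 17 were higher and 10 lower. With 0 factors 12 were higher and 6 lower (median 0.17), and 8 were higher in both fits. Gen, a resolvase of Holliday junctions, was at 2.402, 1.11 and 1.23 cpm in the 3 h samples and 3.71, 5.28 and 4.11 cpm in the 8 h samples (log2 fold change 1.82 ± 0.55 SE, adjusted p = 0.0373). Ku80, of double-strand break end joining, was at 7.46, 8.15 and 7.69 cpm in the 3 h samples and 11.3, 11.3 and 11.04 cpm in the 8 h samples (log2 fold change 2.15 ± 0.29 SE, adjusted p = 6.12e-04; 0.53 with 0 factors, adjusted p = 0.417), and mre11, a break-processing nuclease, at 6.35, 4.505 and 4.99 cpm in the 3 h samples and 10.3, 8.31 and 7.97 cpm in the 8 h samples (log2 fold change 1.88 ± 0.26 SE, adjusted p = 6.25e-04; 0.75 with 0 factors, adjusted p = 0.0888). Their groups did not overlap, although the differences in cpm were small beside the fitted changes. Parp1, which marks broken DNA with poly(ADP-ribose), was at 189, 258 and 366 cpm in the 3 h samples and 146, 148 and 166 cpm in the 8 h samples (log2 fold change -1.22 ± 0.20 SE, adjusted p = 0.00155). Tdg, with the highest cpm on the list, was at 438 ± 59.6 cpm at 3 h and 526 ± 21.2 cpm at 8 h (SD, n = 3) and did not pass. The call of Gen ended without 8 h replicate 2, 8 h replicate 3, 3 h replicate 2 or 3 h replicate 3. That of Ku80 ended without 5 h replicate 1, where Ku80 was at 48.3 cpm, and without all 5 h samples.

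Ribosome biogenesis genes were called higher in 15 of 48 and lower in 2 (median 0.66), against 10 and 6 with 0 factors (median 0.16). Without 5 h replicate 1, 4 were higher and 5 lower, and without all 5 h samples 7 and 7. The summed level of the list was lower at 8 h, 940 to 1011 cpm at 3 h and 598 to 704 cpm at 8 h. Beside RIOK1, the higher calls included l(1)G0020 (log2 fold change 1.53 ± 0.38 SE, adjusted p = 0.0145; 0.699 with 0 factors, adjusted p = 0.104) and mbm, mushroom body miniature (log2 fold change 1.39 ± 0.32 SE, adjusted p = 0.0108; 0.22 with 0 factors, adjusted p = 0.723), both with overlapping groups. mbm was at 4.46, 4.505 and 6.81 cpm in the 3 h samples and 6.14, 6.62 and 5.62 cpm in the 8 h samples. Polr1E, a subunit of RNA polymerase I, was lower, at 11.8, 14.2 and 16.2 cpm in the 3 h samples and 1.83, 2.08 and 1.302 cpm in the 8 h samples (log2 fold change -2.07 ± 0.41 SE, adjusted p = 0.00461), as was Nop17l, at 291, 279 and 350.4 cpm in the 3 h samples and 86.4, 128 and 140.1 cpm in the 8 h samples (log2 fold change -0.94 ± 0.25 SE, adjusted p = 0.0238). l(1)G0020 lost its call without 8 h replicate 1 or 3 h replicate 1, and Nop17l without 8 h replicate 1, 8 h replicate 2, 3 h replicate 1 or 3 h replicate 3.

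Cytosolic ribosomal protein genes were lower in 14 of 81 and higher in 0 (median -0.56), but with 0 factors in only 2 (median -0.16), and 4 to 44 were lower when samples were left out in turn. RpS15Aa was lower in both fits, at 399, 433 and 733 cpm in the 3 h samples and 89.03, 116 and 109 cpm in the 8 h samples (log2 fold change -1.49 ± 0.35 SE, adjusted p = 0.01199). RpS29 (log2 fold change -1.15 ± 0.22 SE, adjusted p = 0.003995; -0.35 with 0 factors, adjusted p = 0.445) and RpL38 (log2 fold change -1.02 ± 0.25 SE, adjusted p = 0.0137; -0.17 with 0 factors, adjusted p = 0.676) passed with 2 factors but not with 0. RpS15Aa has a near copy, RpS15Ab, so its count is uncertain. Mitochondrial ribosomal protein genes had 1 higher, mRpL20 (log2 fold change 1.33 ± 0.39 SE, adjusted p = 0.0321), and 1 lower, mRpL28 (log2 fold change -0.72 ± 0.23 SE, adjusted p = 0.0487), of 55 (0 factors, 7 higher and 6 lower). The call of mRpL20 ended without 8 h replicate 1, 8 h replicate 2, 3 h replicate 1 or 3 h replicate 2, and that of mRpL28 without any sample but 3 h replicate 1.

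Respiratory chain and ATP synthase genes were lower in 12 of 71 and higher in 0 (median -0.41; 0 factors, 12 lower and 0 higher, median -0.02), of which 7 were lower in both fits; 4 to 10 were lower with samples left out in turn. Complex I, which takes electrons from NADH, gave 8 of the 12. ND-B17.2 was at 38.9, 46.4 and 53.4 cpm in the 3 h samples and 13.8, 14.8 and 12.7 cpm in the 8 h samples (log2 fold change -1.04 ± 0.22 SE, adjusted p = 0.00644). ND-AGGG, also of complex I (log2 fold change -1.23 ± 0.37 SE, adjusted p = 0.0374), and UQCR-11L of complex III (log2 fold change -1.69 ± 0.49 SE, adjusted p = 0.0322; -0.997 with 0 factors, adjusted p = 0.07305) lost their calls without 8 h replicate 3 or 3 h replicate 3, and ND-AGGG also without replicate 2 of either group. The ATP synthase subunit blw, with the highest cpm on the list, was at 223 ± 48.4 cpm at 3 h and 223 ± 12.5 cpm at 8 h (SD, n = 3), with overlapping groups. The genes of the mitochondrial genome are not on the list, and their RNA lies outside the nucleus. All 11 tested were lower in every 8 h sample than in every 3 h sample, beside 29.2% of all tested genes. Their summed level was 1147 to 1486 cpm at 3 h and 433 to 871 cpm at 8 h. Of the 11, 2 passed the test (0 factors, 4), with 0 higher. Their part in the list's calls was not tested.

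Among 31 antioxidant genes 3 were lower and 1 higher (0 factors, 6 lower and 2 higher). The lower share, 9.7%, is near the 9.08% of all tested genes. Cat, whose product breaks down hydrogen peroxide and which these flies overexpress, was at 8029, 11158 and 17727 cpm in the 3 h samples and 2597, 3049 and 3603 cpm in the 8 h samples (log2 fold change -1.55 ± 0.38 SE, adjusted p = 0.0142), and lost its call without 8 h replicate 1 or 3 h replicate 3 (highest adjusted p 0.0850). Gclm, the modifier subunit of glutathione synthesis, was at 65.8, 79.5 and 96.3 cpm in the 3 h samples and 28.1, 45.97 and 51.4 cpm in the 8 h samples (log2 fold change -1.07 ± 0.24 SE, adjusted p = 0.00837), and Prx6c, a peroxiredoxin, was lower too (log2 fold change -1.16 ± 0.29 SE, adjusted p = 0.0168), except without 8 h replicate 1 or 3 h replicate 2. Gclc, the catalytic subunit, was called higher with 2 factors (log2 fold change 0.74 ± 0.20 SE, adjusted p = 0.02196), yet its samples overlapped, at 181, 168 and 185 cpm in the 3 h samples and 128, 172 and 158 cpm in the 8 h samples, and the direction turned with 0 factors (-0.22 with 0 factors, adjusted p = 0.6302). The call of Gclc also ended without 8 h replicate 2 or 3 h replicate 3.

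Of 25 heat shock and chaperone genes tested, 2 were lower and 0 higher (0 factors, 3 and 0). The lower share, 8%, is near the 9.08% of all tested genes. lncRNA:Hsromega, the noncoding heat shock RNA that organises nuclear stress speckles, was at 58032, 63084 and 56985 cpm in the 3 h samples and 11677, 16884 and 16923 cpm in the 8 h samples (log2 fold change -1.17 ± 0.30 SE, adjusted p = 0.0199). Hsc70-1 was at 171, 198 and 262 cpm in the 3 h samples and 17.8, 25.6 and 20.3 cpm in the 8 h samples (log2 fold change -1.75 ± 0.38 SE, adjusted p = 0.00781). The 3 h and 8 h samples did not overlap in either. The call of lncRNA:Hsromega ended without 8 h replicate 1, 8 h replicate 2, 3 h replicate 1 or 3 h replicate 2 (highest adjusted p 0.205).

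Stress signalling genes gave 3 higher and 4 lower of 25 (0 factors, 6 and 12). Thor, the translation inhibitor 4E-BP, was at 552, 756 and 952 cpm in the 3 h samples and 131, 185 and 215 cpm in the 8 h samples (log2 fold change -1.86 ± 0.45 SE, adjusted p = 0.0132). Ets21C, a transcription factor of JNK signalling, was at 25.3, 25.4 and 37.1 cpm in the 3 h samples and 4.25, 7.13 and 5.21 cpm in the 8 h samples (log2 fold change -1.49 ± 0.32 SE, adjusted p = 0.00754), and the cell death gene hid at 20.3, 19.99 and 18.95 cpm in the 3 h samples and 11.5, 9.04 and 11.8 cpm in the 8 h samples (log2 fold change -0.92 ± 0.27 SE, adjusted p = 0.0328). p38a, a stress kinase, was at 4.203, 6.36 and 4.11 cpm in the 3 h samples and 22.2, 20.9 and 21.04 cpm in the 8 h samples (log2 fold change 0.95 ± 0.30 SE, adjusted p = 0.0455; 2.12 with 0 factors, adjusted p = 6.87e-04), and Dronc, the initiator caspase, at 8.58, 10.98 and 7.75 cpm in the 3 h samples and 14.4, 15.9 and 20.5 cpm in the 8 h samples (log2 fold change 1.01 ± 0.28 SE, adjusted p = 0.0247). hep, the kinase that activates JNK, was higher (log2 fold change 0.46 ± 0.13 SE, adjusted p = 0.0261). puc, the JNK phosphatase and a usual readout of that pathway, was at 1824, 2055 and 2569 cpm in the 3 h samples and 696, 727 and 634 cpm in the 8 h samples and did not pass with 2 factors (log2 fold change -0.45 ± 0.23 SE, adjusted p = 0.202; -1.65 with 0 factors, adjusted p = 0.0107). Each of the calls of hid, p38a, Dronc and hep ended without at least 2 of the samples: 3 h replicate 3 for hid, p38a and Dronc, 3 h replicate 1 for p38a, Dronc and hep, 3 h replicate 2 for hid and hep, 8 h replicate 1 for hid and p38a, 8 h replicate 2 for hid, p38a and hep, and 8 h replicate 3 for p38a and hep.

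Cell cycle genes, 32 tested, were lower in 4 and higher in 0 (0 factors, 11 lower and 5 higher). CycE, cyclin E, was at 41.3, 55.2 and 67.2 cpm in the 3 h samples and 4.52, 4.996 and 4.895 cpm in the 8 h samples (log2 fold change -2.798 ± 0.29 SE, adjusted p = 1.15e-04). BubR1, of the spindle checkpoint, was at 26.4, 26.3 and 28.9 cpm in the 3 h samples and 2.26, 2.53 and 3.02 cpm in the 8 h samples (log2 fold change -1.83 ± 0.39 SE, adjusted p = 0.00749), and Cdc45, of the replicative helicase, at 51.98, 42.2 and 63.1 cpm in the 3 h samples and 7.59, 8.25 and 9.63 cpm in the 8 h samples (log2 fold change -1.41 ± 0.26 SE, adjusted p = 0.00327). Cdc6, which loads that helicase, was at 4717, 5634 and 6144 cpm in the 3 h samples and 2.799, 6.85 and 4.999 cpm in the 8 h samples, and did not pass with 2 factors (log2 fold change -5.09 ± 2.94 SE, adjusted p = 0.249; -10.14 with 0 factors, adjusted p = 0.00267). It lies near Arr2 and GAPsec on chromosome arm 3L and was at 2.39, 363 and 21.9 cpm without blue light. Of the glycolysis genes 1 of 18 was called (0 factors, 0 higher and 3 lower), Ldh, lactate dehydrogenase, higher with 2 factors (log2 fold change 2.55 ± 0.74 SE, adjusted p = 0.03098), although its groups overlapped, at 105, 52.1 and 98.3 cpm in the 3 h samples and 84.2, 64.4 and 53.5 cpm in the 8 h samples, and the direction turned with 0 factors (-0.34 with 0 factors, adjusted p = 0.777), and the call ended without replicate 2 of either group, 8 h replicate 1 or 3 h replicate 3. Ldh was at 6.95, 4.67 and 4.01 cpm without blue light and at 387, 90.3 and 3.84 cpm after 5 h, and Pfrx, with the highest cpm of that list, was at 761 ± 137 cpm at 3 h and 559 ± 45.8 cpm at 8 h (SD, n = 3).

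Histamine is the transmitter of fly photoreceptors. Of 8 genes of its cycle 2 were higher and 2 lower (0 factors, 3 and 3). Hdc, which makes histamine, was at 85.5, 164 and 123 cpm in the 3 h samples and 409, 429 and 493 cpm in the 8 h samples (log2 fold change 0.77 ± 0.24 SE, adjusted p = 0.0402; 1.84 with 0 factors, adjusted p = 6.51e-04). CarT, a carcinine transporter, was at 317, 447 and 455 cpm in the 3 h samples and 771, 727 and 643 cpm in the 8 h samples (log2 fold change 0.96 ± 0.23 SE, adjusted p = 0.0132). e, ebony, which couples histamine to beta-alanine in glia, was at 29.8, 23.4 and 28.05 cpm in the 3 h samples and 18.7, 14.7 and 15.4 cpm in the 8 h samples (log2 fold change -0.84 ± 0.23 SE, adjusted p = 0.0248), and Vmat, a vesicular monoamine transporter, at 201, 219 and 219 cpm in the 3 h samples and 108, 82.7 and 89.1 cpm in the 8 h samples (log2 fold change -1.197 ± 0.21 SE, adjusted p = 0.00244). The groups did not overlap in these 4 genes. The call of CarT ended without 8 h replicate 1 (adjusted p = 0.0671), that of Hdc without any sample but 3 h replicate 2, and that of e without any 8 h sample or 3 h replicate 3.

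e and Eaat1 are glial genes, and 4 of 13 glial markers were lower and 0 higher, a summed level of 1659 to 2385 cpm at 3 h and 463 to 544 cpm at 8 h. Without Eaat1 the sums were 544 to 623 cpm and 411 to 483 cpm. repo, the defining glial factor, was at 19.4 ± 2.63 cpm at 3 h and 17.2 ± 1.004 cpm at 8 h (SD, n = 3). Markers of other neurons were lower in 3 of 16 and higher in 0, and of R1 to R6 cells lower in 2 of 11 and higher in 0. Those of hemocytes were lower in 2 of 9 (0 factors, 1 lower and 1 higher), and of R7 and R8 cells, cone and pigment cells and muscle in 0. Hemocyte sums overlapped, at 366 to 474 cpm at 3 h and 414 to 472 cpm at 8 h. Fat body markers were lower in 2 of 7 (0 factors, 1), summed 1227 to 1441 cpm at 3 h and 611 to 1055 cpm at 8 h. Most of that sum was apolpp, at 1238 ± 95.6 cpm at 3 h and 734 ± 237 cpm at 8 h (SD, n = 3). The log2 fold change was positive in 4 of the 7 fat body markers, with a median of 0.02. The part of other cell types in the results was not tested, and fewer cells of a type cannot be told apart from less RNA per cell in these samples.

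Synaptic genes were higher in 1 of 27 and lower in 2 (0 factors, 6 higher and 2 lower). The lower share, 7.4%, is near the 9.08% of all tested genes. Liprin-alpha, a scaffold of the active zone, was at 121, 173 and 143 cpm in the 3 h samples and 346, 363 and 323 cpm in the 8 h samples (log2 fold change 0.67 ± 0.16 SE, adjusted p = 0.0112), the 1 higher. Snap25, of vesicle fusion, was at 389, 418 and 552 cpm in the 3 h samples and 255, 255 and 259 cpm in the 8 h samples (log2 fold change -0.85 ± 0.25 SE, adjusted p = 0.03098) and lost its call without 3 h replicate 1 or 3 h replicate 3. Syt1, the calcium sensor of release, was the other lower gene with 2 factors (log2 fold change -0.64 ± 0.20 SE, adjusted p = 0.0477), with overlapping groups, and turned with 0 factors (0.104 with 0 factors, adjusted p = 0.759). Its call ended without any 1 of the 6 samples. unc-13, a release factor with the highest cpm of the list, was at 4381 ± 776 cpm at 3 h and 6800.1 ± 281 cpm at 8 h (SD, n = 3). Potassium channel genes were lower in 2 of 23, a share near the 9.08% of all tested genes, and higher in 0 (0 factors, 2 lower and 4 higher). Hk (log2 fold change -0.74 ± 0.22 SE, adjusted p = 0.0321; 0.45 with 0 factors, adjusted p = 0.265) and Shal (log2 fold change -0.62 ± 0.14 SE, adjusted p = 0.009999; 0.00 with 0 factors, adjusted p = 0.993) were called lower with 2 factors, although Hk was at 1163, 1551 and 1498 cpm in the 3 h samples and 1814, 1869 and 2078 cpm in the 8 h samples, higher in every 8 h sample, and Shal overlapped. Both calls ended without replicate 1 of either group or 3 h replicate 3, and that of Hk also without 8 h replicate 2 or 8 h replicate 3. Sh, the Shaker channel, was at 5455, 7859.5 and 7288 cpm in the 3 h samples and 9401, 9140.3 and 11733 cpm in the 8 h samples and did not pass.

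Axon guidance and adhesion genes were higher in 7 of 40 and lower in 2 (0 factors, 10 and 5). dock, an adaptor of axon guidance receptors, was at 127, 162 and 129.9 cpm in the 3 h samples and 432, 459 and 404 cpm in the 8 h samples (log2 fold change 1.81 ± 0.32 SE, adjusted p = 0.00235). Dscam1, a cell surface receptor with many splice forms, was at 364, 324 and 333 cpm in the 3 h samples and 926, 698 and 525 cpm in the 8 h samples (log2 fold change 1.66 ± 0.23 SE, adjusted p = 6.78e-04), and ena, an actin regulator, at 61.1, 54.5 and 46.9 cpm in the 3 h samples and 86.8, 94.9 and 84.00 cpm in the 8 h samples (log2 fold change 1.26 ± 0.15 SE, adjusted p = 2.83e-04). Ephrin, a ligand, was at 127, 172 and 163 cpm in the 3 h samples and 101, 89.8 and 90.8 cpm in the 8 h samples (log2 fold change -0.82 ± 0.16 SE, adjusted p = 0.00385). The groups of these 4 genes did not overlap. CadN was called lower with 2 factors (log2 fold change -0.79 ± 0.23 SE, adjusted p = 0.02997) with overlapping samples (-0.15 with 0 factors, adjusted p = 0.645), and not without replicate 1 of either group or 3 h replicate 3.

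Immune genes were higher in 3 of 30 and lower in 5 (0 factors, 5 and 7). The Toll pathway genes Dif, at 116, 154 and 120.2 cpm in the 3 h samples and 269, 268 and 228 cpm in the 8 h samples (log2 fold change 1.296 ± 0.39 SE, adjusted p = 0.0382), and Myd88, at 26.6, 20.1 and 16.8 cpm in the 3 h samples and 75.4, 46.6 and 37.6 cpm in the 8 h samples (log2 fold change 1.21 ± 0.34 SE, adjusted p = 0.0279), were higher, as was the peptidoglycan sensor PGRP-LE, at 7.81, 7.65 and 7.75 cpm in the 3 h samples and 17.4, 16.8 and 15.4 cpm in the 8 h samples (log2 fold change 0.85 ± 0.24 SE, adjusted p = 0.0259). The Bomanin peptide genes BomS2 (log2 fold change -2.32 ± 0.60 SE, adjusted p = 0.01903) and BomS3, at 18.6, 21.5 and 15.1 cpm in the 3 h samples and 10.01, 8.76 and 7.08 cpm in the 8 h samples (log2 fold change -1.797 ± 0.33 SE, adjusted p = 0.00319), and PGRP-LB, an enzyme that degrades peptidoglycan (log2 fold change -2.02 ± 0.37 SE, adjusted p = 0.00334), were lower. PGRP-LA was at 420.3 ± 61.9 cpm at 3 h and 259.9 ± 11.5 cpm at 8 h (SD, n = 3). Dif lost its call without 8 h replicate 2 or 3 h replicate 3, Myd88 without 8 h replicate 1 or any 3 h sample, PGRP-LE without replicate 1 or 2 of either group, and BomS2 without replicate 2 of either group.

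Autophagy genes were higher in 3 of 24 and lower in 0 (0 factors, 7 and 1): Vps15, a partner of the class III lipid kinase, at 23.2, 32.03 and 31.04 cpm in the 3 h samples and 39.2, 40.6 and 40.2 cpm in the 8 h samples (log2 fold change 0.61 ± 0.15 SE, adjusted p = 0.01404), the protease Atg4b (log2 fold change 0.54 ± 0.16 SE, adjusted p = 0.0353), whose call ended without any 1 of the 6 samples (highest adjusted p 0.0829), and Atg18b (log2 fold change 0.83 ± 0.20 SE, adjusted p = 0.0152; 0.37 with 0 factors, adjusted p = 0.161). All 3 calls ended with a replicate block, without 5 h replicate 1 and without all 5 h samples. With the block and 2 factors 0 autophagy genes were higher. Atg1, the kinase that starts autophagy, was at 325 ± 29.3 cpm at 3 h and 220.2 ± 21.2 cpm at 8 h (SD, n = 3). B52, a splicing factor of the SR class, was the 1 of 11 called (0 factors, 3 higher and 0 lower), at 375, 723 and 552 cpm in the 3 h samples and 2506, 2307 and 2253 cpm in the 8 h samples (log2 fold change 0.77 ± 0.23 SE, adjusted p = 0.0342; 2.098 with 0 factors, adjusted p = 6.31e-04), and lost its call without replicate 1 of either group, 8 h replicate 2 or 3 h replicate 3. Doa, a kinase of SR proteins, was at 1583, 3188 and 2380.0 cpm in the 3 h samples and 6551, 7649.9 and 7738 cpm in the 8 h samples and passed with 0 factors (1.62 with 0 factors, adjusted p = 0.005002) but not with 2 (adjusted p = 0.766). In both genes the 3 h samples were low: without blue light B52 was at 1787, 1448 and 1549 cpm and Doa at 7506, 4728 and 5895 cpm.

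**Figure D5:**
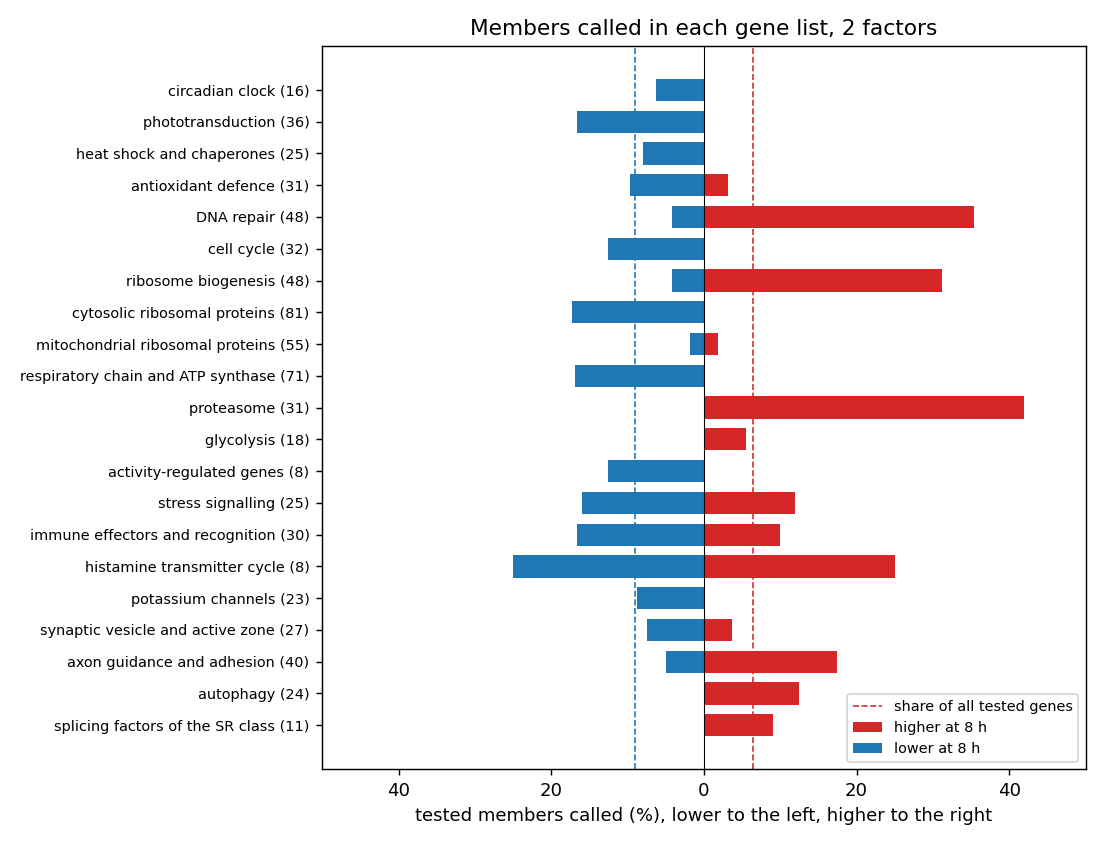
Share of each list's tested genes (number in brackets) called lower (left) and higher (right) at 8 h with 2 factors, in percent, with dashed lines at the shares of all tested genes, 9.08% and 6.4%. Proteasome, DNA repair and ribosome biogenesis have the longest bars on the right.

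By kind of transcript, 42 of 468 noncoding RNA genes were lower and 9 higher, of which the lower share is near the 9.08% of all tested genes. Of 18 small nuclear RNA genes 9 were higher, beside 6.4% of all tested, and 0 lower. Small nuclear RNA genes come in near-identical copies, so their counts are uncertain. The median span of lower genes was 4475 bases and that of higher genes 3961 bases, beside 2869 bases for genes not called. Their median levels were 30.5, 28.3 and 12.9 cpm in the same order. The part of level in the difference of span was not tested.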

How the data were processed

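Nuclei of R1 to R6 photoreceptors were isolated from pooled flies and their rRNA-depleted RNA was sequenced as read pairs. The authors trimmed reads with Trimmomatic, aligned them with HISAT2 and counted them per gene with HTSeq (0.11.1 per the submitters' processing notes, which also name dm6), and deposited 1 table of raw counts for 18 samples. The strand setting of the counting is not given in the sources used here. The 5 summary lines of HTSeq were left out of library sizes and tests and took 55.7% to 62.9% of pairs in the 6 samples.

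Counts were fitted in edgeR 4.0.16 (R 4.3.3, limma 3.58.1) with TMM scaling, a mean for each of the 6 conditions and 2 RUVs factors, re-implemented after the published method from replicate deviations of all tested genes. Genes needed more than 10 counts in every sample (9427 of 17811). p-values of the quasi-likelihood test were adjusted over all 9427 genes by Benjamini and Hochberg. SE is the absolute fold change divided by the root of F, and cpm are TMM-scaled. Fits were tested on simulated data. Alternatives covered filters, scaling, the number of factors, DESeq2 1.42.0, glmTreat at 1.2-fold, subsets of samples, a replicate block and leaving out each sample.

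The text names the 12 largest increases and decreases called with 2 and 0 factors, without overlap and with a mean of at least 5 cpm, all measured clock genes and, from each other list, up to 3 called genes in each direction and the gene with the highest cpm. Exceptions are marked or serve as markers, and 1 gene that the rule picks is not reported here. The members and lists were chosen with earlier results of these data known. Positions are from the Ensembl 115 annotation in dm6 coordinates and 17710 of 17811 IDs had a symbol. 6 names on the lists were not found. Promoter sequences were not used here. Replicate pairs all differed by more than sampling noise. The labels do not say what the replicates share, so p-values measure the spread between these samples.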

Additional observations from a re-analysis of the deposited data

Results flagged for a closer look

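The 5 h samples shared in the estimates of spread and factors but were compared in no test above. In 5 h replicate 1, 10 of the 12 genes with the largest decrease lay above every sample without blue light, a signal in samples that the comparison of 8 h with 3 h does not use. The other 5 h samples had 4 (replicate 2) and 1 (replicate 3) such genes. The 3 samples of the 5 h group therefore differ among themselves in these genes, and the reason was not tested.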

How the results depend on the processing

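A minimum of 10 cpm in every sample left 4211 genes, of which 1326 (688 higher and 638 lower) were called, so 51.9% of calls were higher against 41.3%. That count, and those with other filters, 3 factors, upper-quartile or DESeq2 scaling and the DESeq2 test with 2 factors stayed within 1.5 times of 1459. The count was 3457 (1589 higher and 1868 lower) with 0 factors, 2477 (1069 higher and 1408 lower) with 1 factor, 3780 (1752 higher and 2028 lower) with DESeq2 and 0 factors, 897 (333 higher and 564 lower) with glmTreat, 4267 (1932 higher and 2335 lower) for the 6 samples alone with 0 factors, 4422 (2012 higher and 2410 lower) for those with 2 factors and 3212 (1523 higher and 1689 lower) for the 9 blue light samples. With a replicate block it was 821 (296 higher and 525 lower) beside 2 factors and 3504 (1614 higher and 1890 lower) with 0. The replicate numbers pair nothing by the labels. Without factors, 2 of 3 same-numbered pairs of 8 h and 3 h samples had deviations correlated over 0.1, and 5 of 6 samples correlated best with their own number. With 2 factors the counts were 1 of 3 pairs and 4 of 6 samples. Leaving out each sample gave 808 to 1218 calls (363 to 488 higher, 433 to 787 lower), and 559 of 1459 genes were called in every such fit. Without all 5 h samples, chosen after seeing the data, it was 2858 (1205 higher and 1653 lower), and 1707 (725 higher and 982 lower) without 5 h replicate 1. 17 genes were called in opposite directions by the 2-factor fit and the 6 samples with 0 factors. The cause of these shifts was not tested.

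The log2 fold change turned direction in 9 of the 116 genes picked for naming, counting only settings where the turned value or the 2-factor value passed the test (DESeq2 here with 0 factors). In a further 9 genes the sign turned in some setting, but neither that value nor the 2-factor value passed the test. cyc had 0.50 (DESeq2), 0.50 (6 samples with 0 factors), 0.49 (6 samples with 2 factors) and 0.50 (the replicate block with 0 factors), against -0.21. cry had 0.57 (6 samples with 2 factors) and 0.62 (no 5 h samples), against -0.12. Gclc had -0.22 (0 factors), -0.22 (DESeq2), -0.21 (6 samples with 0 factors), -0.16 (6 samples with 2 factors), -0.21 (the replicate block with 0 factors) and -0.21 (no 5 h samples), against 0.74. Ldh had -0.34 (0 factors), -0.33 (DESeq2), -0.34 (6 samples with 0 factors), -0.36 (6 samples with 2 factors), -0.36 (the replicate block with 0 factors) and -0.84 (no 5 h samples), against 2.55. Hk had 0.45 (0 factors), 0.46 (DESeq2), 0.46 (6 samples with 0 factors), 0.45 (6 samples with 2 factors), 0.46 (the replicate block with 0 factors) and 0.15 (no 5 h samples), against -0.74. Shal had 0.0027 (0 factors), 0.0069 (DESeq2), 0.012 (6 samples with 0 factors), 0.0089 (6 samples with 2 factors) and 0.0052 (the replicate block with 0 factors), against -0.62. Sh had 0.57 (6 samples with 0 factors), 0.58 (6 samples with 2 factors) and 0.79 (no 5 h samples), against -0.58. Syt1 had 0.10 (0 factors), 0.11 (DESeq2), 0.11 (6 samples with 0 factors), 0.12 (6 samples with 2 factors) and 0.11 (the replicate block with 0 factors), against -0.64. unc-13 had 0.64 (DESeq2), 0.65 (6 samples with 0 factors), 0.61 (6 samples with 2 factors), 0.65 (the replicate block with 0 factors) and 0.45 (no 5 h samples), against -0.25. None of the 24 largest changes turned in 557 refits, and 37 of these refits missed the threshold. These 24 were picked for calls in the same direction with 2 and 0 factors and for groups without overlap. A turn in refits of the same samples was therefore unlikely from the start. Depth limits low genes most: the shallowest 3 h sample had 11906754 counted pairs. A search of promoter motifs was not run.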
